A study of Saccharomyces cerevisiae with 2 samples.

Results

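The mRNA pool of wild-type Saccharomyces cerevisiae BY4741 was described from a single RNA-seq library of cells held for 6 h in YPD20, a rich medium with 20% glucose. Its members were the 5995 features annotated as mRNA among the 6420 features counted in this library, 1 of the 2 libraries of the series. BY4741 is a laboratory haploid (MATa) related to the genome strain S288C, with deletions in HIS3, LEU2, MET17 and URA3. An overnight YPD culture was diluted into fresh YPD20 and kept at 30 °C without shaking, the beginning of an alcoholic fermentation. The study describes this stage as the entry into cellular quiescence. The study set this WT strain beside a strain lacking CDC55, a regulatory B subunit of protein phosphatase 2A, and only the WT library was used here. With 1 library there is no replicate check, so each interval reflects counting error alone and says nothing of how cultures vary.

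Yeast with plenty of glucose ferments it even where oxygen is present. Glucose enters through hexose transporters, is split to pyruvate by glycolysis, and leaves the cell as ethanol after decarboxylation and reduction, while genes for other carbon sources and for respiration are repressed. Fast growth also needs ribosomes, and ribosomal protein genes are known as a large part of the mRNA of growing yeast. Many of these genes exist as paralogs kept since an ancient genome duplication, and often one copy serves rapid growth on glucose while the other is reserved for another carbon source, starvation or low oxygen. Levels are given as RPKM, reads per kb of coding sequence scaled to the total count, and the share of the mRNA pool is the share of a gene in the sum of counts per kb over the mRNA features. A share of mRNA reads, by contrast, is not divided by length. The deposited lengths are coding lengths without untranslated regions.

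Codon choice is known to go with level in yeast, though not in each gene. As examples, the first 90 coding bases of the paralog pairs CDC19 and PYK2 (pyruvate kinase) and TKL1 and TKL2 (transketolase) are printed. Those of the seripauperin PAU1 are added, all 5′ to 3′ from the R64 genome. Capitals mark the 23 codons that abundant yeast proteins are known to prefer. Shares of preferred codons further below cover whole coding sequences without methionine and tryptophan, whereas the tallies of 30 here count every codon.
CDC19: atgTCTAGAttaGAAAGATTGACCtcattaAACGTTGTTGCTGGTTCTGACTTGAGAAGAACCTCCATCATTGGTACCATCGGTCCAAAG
PYK2: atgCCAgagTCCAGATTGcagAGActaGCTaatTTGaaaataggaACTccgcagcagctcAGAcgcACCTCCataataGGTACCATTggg
TKL1: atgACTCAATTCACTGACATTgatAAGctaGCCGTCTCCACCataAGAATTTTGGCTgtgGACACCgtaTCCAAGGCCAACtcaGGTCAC
TKL2: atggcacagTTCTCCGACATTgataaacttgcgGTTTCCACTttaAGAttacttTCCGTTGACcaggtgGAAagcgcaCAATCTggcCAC
PAU1: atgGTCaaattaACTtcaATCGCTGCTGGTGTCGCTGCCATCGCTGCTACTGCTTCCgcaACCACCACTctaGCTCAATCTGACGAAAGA
CDC19 lies on chromosome I (71786 to 71875 for these bases, plus strand) and had 26 preferred codons among its first 30. Its paralog PYK2 on chromosome XV (986373 to 986462, minus strand) had 14 of 30. TKL1 on chromosome XVI (694749 to 694838, minus strand) had 23 of 30, and TKL2 on chromosome II (476348 to 476437, minus strand) had 15 of 30. PAU1 on chromosome X (9049 to 9138, minus strand) had 24 of 30 and yet no count in the library.

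The library held 33233285 counts, of which 26800030 (80.64%) fell on mRNA features. The auxotrophic markers matched the strain. LEU2 and URA3, for leucine and uracil synthesis, had 0 counts, which allows at most 3 counts or a share of 1.119e-05% of mRNA reads, and MET17, for sulfur incorporation into homocysteine, had 1 count. The neighbouring YLR302C also had 0 counts. HIS3 had 1624 counts (73.71 RPKM), and its allele in this strain removes only a part of the gene. CDC55 was present with 2614 counts (49.75 RPKM). Of 7 genes of mating type a, 6 lay above the median of the mRNA features (32.51 RPKM), and ASG7 lay below it at 13.99 RPKM. Counts were 24905 for STE2 (the α-factor receptor), 28311 for STE6 (the a-factor exporter) and 17209 for BAR1 (the protease that degrades α-factor). The a-factor precursors MFA1 and MFA2 had 1549 and 5085 counts. Genes of mating type alpha were far below the median of 32.51 RPKM, with 0.9063 RPKM for MF(ALPHA)1, 1.575 for MF(ALPHA)2, 1.746 for STE3 (the a-factor receptor) and 4.437 for SAG1 (the α-agglutinin).

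Few genes carried most of the pool. The median mRNA feature had 1362 counts and 32.51 RPKM, with quartiles of 14.94 and 72.23 RPKM, and TDH3, the highest apart from IRC13, stood 420 times above the median. Above 1000 RPKM lay 163 features, and 304 lay under 1 RPKM. The 20 highest features held 17.48% of the pool, the 100 highest 44.32%, and 129 features held 50% of it. For 90% of the pool 2011 features were needed. Of the 100 highest, 77 encoded ribosomal proteins and 8 acted in glycolysis or ethanol formation, and of the 20 highest these numbers were 11 and 6.

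**Figure D1:**
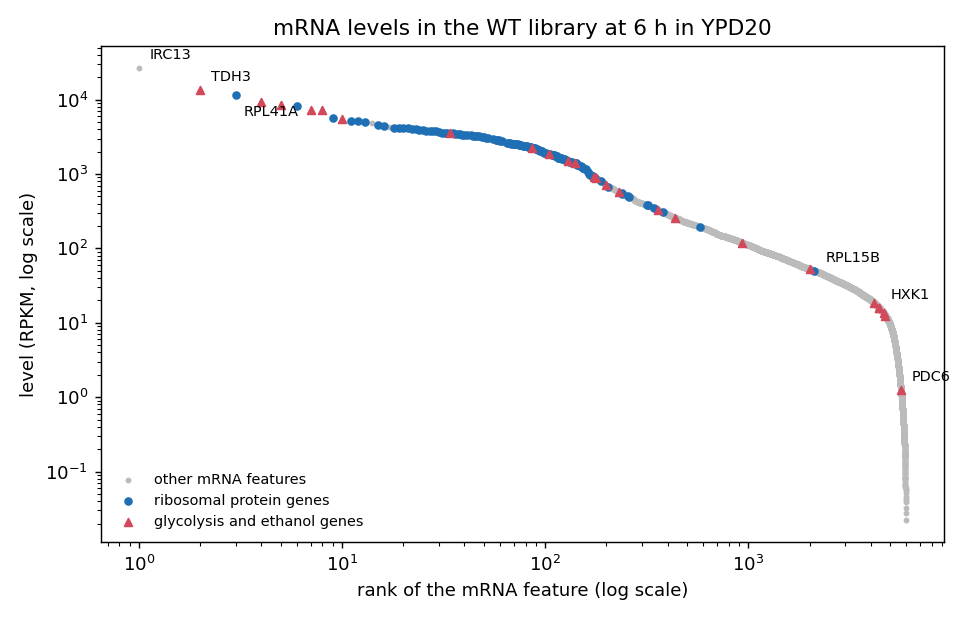
Each point is 1 mRNA feature, with its rank on the x axis and its level in RPKM on the y axis, both on log scales, and the 47 features with 0 counts are left out. Ribosomal protein genes (blue) take 77 of the 100 highest ranks and reach down to RPL15B at 50.25 RPKM, while glycolysis and ethanol genes (red triangles) stand both at the top, with TDH3 at 13653 RPKM, and far down, with PDC6 at 1.245 RPKM.

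The feature at rank 1, IRC13, needs a caution. IRC13 (YOR235W) spans 315 bases on chromosome XV (779870 to 780184, plus strand) and had 275023 counts, 26272 RPKM and 3.077% of the pool. Of its bases, 78 lie on the same strand inside SNR17A, a gene for the U3 small nucleolar RNA of rRNA processing, which had 799975 counts over 490 bases. How reads in such an overlap were assigned was not stated, and the part of SNR17A in the IRC13 value was not tested. Another mRNA feature, YGL088W, had 6544 counts beside 6578 for the small nucleolar RNA gene SNR10 that it overlaps. In all, 31 mRNA features overlap a non-coding RNA, 10 of them on the same strand, and 87 overlap a gene on the opposite strand. Without those 10, the number of features holding 50% of the pool became 137, in place of 129.

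Below IRC13, the top of the list was made of glycolysis, ribosomes and the plasma membrane. TDH3, the main glyceraldehyde-3-phosphate dehydrogenase, had 453292 counts and 13653 RPKM (95% interval 13614 to 13693). RPL41A, whose protein is the smallest of the ribosome, followed with 11691 RPKM from 30306 counts on 78 coding bases. This coding sequence is shorter than a full read, and the length leaves out the untranslated regions. Its RPKM and rank may therefore be too high, as may those of RPL41B, and the size of this effect was not tested. Not divided by length, RPL41A had far fewer counts than FBA1 (333179) and ENO2 (371414). The aldolase FBA1 (9283 RPKM), the enolase ENO2 (8505 RPKM), RPS31 (8152 RPKM), which encodes a fusion of ubiquitin and a ribosomal protein, the alcohol dehydrogenase ADH1 (7201 RPKM) and the phosphoglycerate mutase GPM1 (7197 RPKM) came next. RPL41B (5699 RPKM), the phosphoglycerate kinase PGK1 (5537 RPKM), RPL38 (5165 RPKM), RPS20 (5115 RPKM) and RPS12 (5072 RPKM) stood above PMA1 (4884 RPKM), the proton pump of the plasma membrane. PMP1, a small proteolipid that associates with this pump, had 4259 RPKM. For comparison, the actin gene ACT1, a common reference, had 932.1 RPKM.

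Of 43 gene lists, the 137 cytoplasmic ribosomal protein genes held the largest share, with 38.59% of the pool. They took 17.95% of the mRNA reads (95% Clopper-Pearson interval 17.94 to 17.96), a smaller share since their coding sequences are short. With 100 bases subtracted from each length, and no length set below 100 bases, the pool share was 41.39%. Shorter lengths mostly raise the weight of short genes. This value therefore does not bound the effect of the omitted untranslated regions. All 137 lay above the median of the mRNA features, between 50.25 RPKM for RPL15B and 11691 RPKM for RPL41A, with a median of 2209 RPKM. The 41 translation factors held 2.763% of the pool (4.396% of reads), led by TEF1 (3021 RPKM) and TEF2 (2644 RPKM), which encode the same elongation factor 1A, with YEF3 (2960 RPKM), the fungal elongation factor 3, between them. The 100 ribosome biogenesis genes held 1.544% (2.788% of reads) at a median of 93.87 RPKM. Chaperones took 2.012% (3.163% of reads), with CPR1, the cytosolic cyclophilin A, at 2906 RPKM and the ribosome-bound Hsp70 gene SSB1 at 1919 RPKM.

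**Figure D2:**
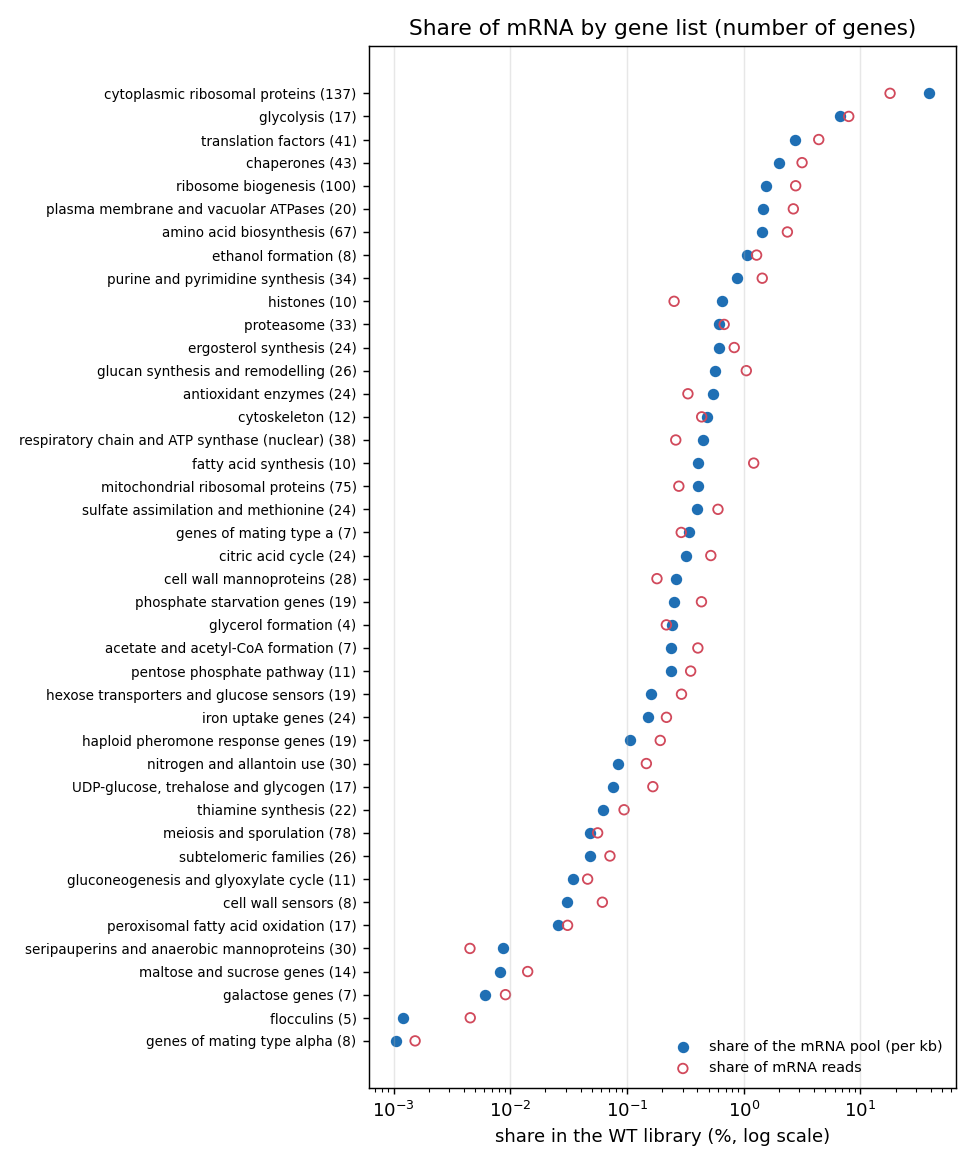
Each row is a gene list with its number of genes, and the x axis gives its share of the WT library in percent on a log scale, as a share of the mRNA pool per kb (filled blue) and of the mRNA reads (open red). Ribosomal proteins (38.59% of the pool) and glycolysis (6.658%) stand at the top, and genes of mating type alpha (0.001049%) at the bottom. Lists can share genes, so shares do not add up.

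Glycolysis came second, with 6.658% of the pool from 17 genes, of which 15 lay above the median of the mRNA features. The lower, 3-carbon part of the pathway stood above the upper part, apart from FBA1. Summed over isozymes, glucose phosphorylation had 1026 RPKM and glucose-6-phosphate isomerase (PGI1) 1487 RPKM. Phosphofructokinase had 1282 RPKM, summed over its 2 subunits, which are not isozymes. Aldolase had 9283 RPKM and triose-phosphate isomerase (TPI1) 3563 RPKM. Glyceraldehyde-3-phosphate dehydrogenase had the highest sum, 16153 RPKM, and phosphoglycerate kinase 5537, phosphoglycerate mutase 7246 and enolase 9426 RPKM followed. The sum of pyruvate kinase was lower again at 1888 RPKM, and so was that of pyruvate decarboxylase at 1419 RPKM. Alcohol dehydrogenase, which turns acetaldehyde into ethanol, had 7615 RPKM. The genes of the 2 phosphofructokinase subunits, PFK1 (708.8 RPKM) and PFK2 (573.4 RPKM), differed by 1.236-fold.

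**Figure D3:**
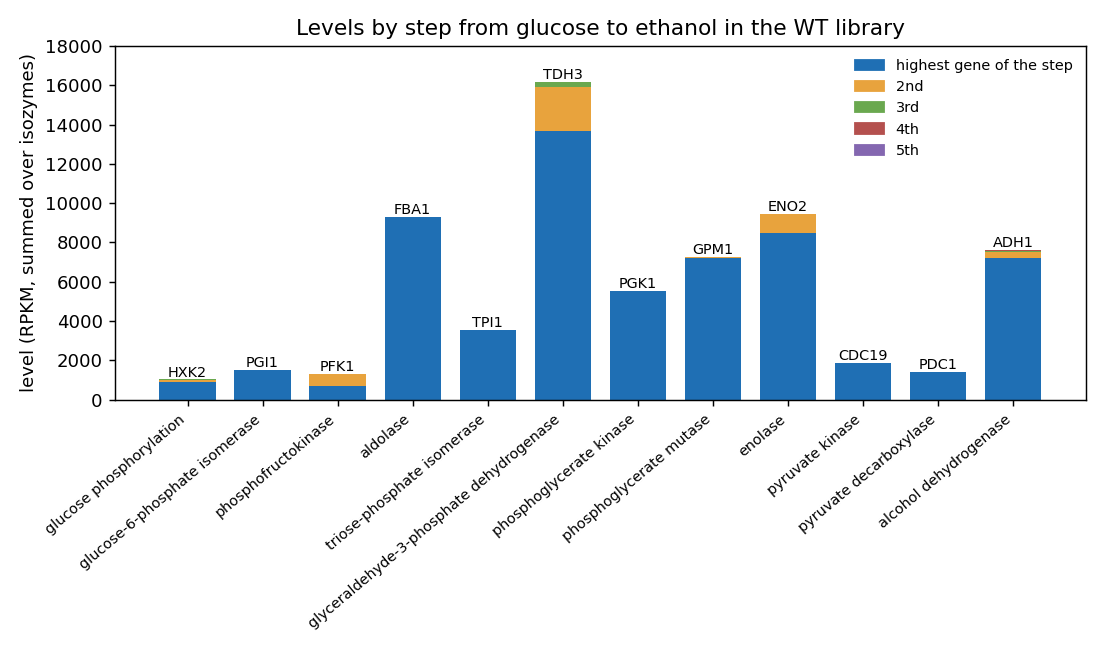
Bars give the level of each step from glucose to ethanol in the WT library, in RPKM from 0. Levels are summed over isozymes, or over the subunits for phosphofructokinase. The highest gene of each step is in blue and named above it, with further genes stacked in other colours. The step of glyceraldehyde-3-phosphate dehydrogenase is highest at 16153 RPKM, and in most steps the bar is nearly all of 1 colour.

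Around the main route, fermentation branches were smaller. The 8 ethanol genes held 1.058% of the pool, and ADH1 made up 79.7% of it. Glycerol formation, the route that reoxidizes NADH and balances osmotic pressure, held 0.2423% from 4 genes, with GPP1 (glycerol-3-phosphatase) at 1444 RPKM. Acetate and acetyl-CoA formation held 0.2402% (0.4049% of reads), led by ALD6, the cytosolic aldehyde dehydrogenase, with 69.29% of its list. The pentose phosphate pathway held 0.2388%, led by TKL1 with 28.72% of its list. The hexose transporters and glucose sensors held 0.1606% (0.2931% of reads). HXT1, a transporter of low affinity that high glucose is known to induce, made up 64.16% of them. Only HXT1 (879.8 RPKM), HXT3 (370.7 RPKM) and HXT2 (48.71 RPKM) of the 19 lay above the median. Of the carriers known for lower glucose or slow growth, HXT2 was thus above the median. Below it were HXT4 (8.813 RPKM), HXT5 (2.114 RPKM), HXT6 (18.57 RPKM) and HXT7 (6.921 RPKM), also known as such carriers. HXT6 and HXT7 share 99.82% of their coding bases, so the split between them is uncertain.

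Genes for cell building blocks, membrane pumps and histones mostly lay above the median of the mRNA features. The 67 genes of amino acid biosynthesis held 1.44% of the pool (2.368% of reads) with 59 above the median, and ILV5, of branched-chain amino acid synthesis, led them with 1186 RPKM. The 34 genes of purine and pyrimidine synthesis held 0.8767% (1.442% of reads), led by URA1 (832.4 RPKM), the dihydroorotate dehydrogenase. Fatty acid synthesis held 0.41% (1.218% of reads), with all 10 genes above the median and OLE1, the fatty acid desaturase, highest. All 24 ergosterol genes were above the median too, with ERG11, the lanosterol demethylase, at 892.9 RPKM. The pumps of the plasma membrane and vacuole held 1.46% (2.663% of reads), of which PMA1 made up 39.18%. The 10 histone genes held 0.6521% (0.2533% of reads) and ranged up to 1306 RPKM for HHF2.

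Genes of the cell wall, the subject of the study, spanned a wide range of levels. The 26 genes of glucan synthesis and remodelling held 0.5727% of the pool (1.053% of reads), with GAS1, a glucan-elongating enzyme of the cell surface, at 832.5 RPKM and FKS1, the main enzyme that spins 1,3-β-glucan, at 460 RPKM. Its paralog GSC2, also called FKS2, had 31.38 RPKM. The list of cell wall sensors, which also holds the exchange factors ROM2 and ROM1 that activate Rho1, took 0.03082% of the pool (0.06153% of reads). SLG1, also called WSC1, led it with 98.03 RPKM, followed by WSC2 (46.07 RPKM), ROM2 (42.46 RPKM), WSC4 (35.44 RPKM), MID2 (17.19 RPKM), WSC3 (12.46 RPKM) and ROM1 (10.2 RPKM). UDP-glucose, the donor for glucan, glycogen and trehalose, is made by UGP1, which had 163.9 RPKM. The list of UDP-glucose, trehalose and glycogen genes held 0.07584% (0.1666% of reads), with 6 of 17 above the median, and its lowest gene was GLC3, the glycogen branching enzyme, at 3.528 RPKM. Of the mannoproteins, CCW12 made up 49.2% of the list.

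Stress genes of the study stood on both sides of the median of the mRNA features. HSP12, a membrane-protecting heat shock protein, had 993 counts (90.54 RPKM), CTT1, the cytosolic catalase, 590 counts (10.51 RPKM) and PGM2, a phosphoglucomutase, 902 counts (15.87 RPKM). The transcription factor genes MSN2 and MSN4 had 13.49 and 18.36 RPKM. The disaggregase gene HSP104 had 201.6 RPKM, while the inducible Hsp70 genes SSA3 (18.83 RPKM) and SSA4 (23.71 RPKM) were below the median, with SSA2 at 1812 RPKM. Antioxidant enzymes held 0.5418% of the pool (0.3328% of reads), led by TRX1 (968.4 RPKM), a cytosolic thioredoxin.

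Mitochondrial genes were present at levels around or above the median of the mRNA features. The 38 nuclear genes of the respiratory chain and ATP synthase held 0.4451% of the pool (0.2618% of reads) with 33 above the median, and the 24 of the citric acid cycle 0.3173% (0.5228% of reads) with 21 above it. ATP2, the β subunit of ATP synthase, had 253.2 RPKM. The pyruvate dehydrogenase subunit gene PDA1 led the citric acid cycle list with 318.2 RPKM, and CIT3 was lowest with 1.998 RPKM. Succinate dehydrogenase was uneven, with 93.5 RPKM for SDH3, 42.05 for SDH4, 29.9 for SDH2 and 12.88 for SDH1, which carries the flavin. This was a 7.26-fold spread (95% interval 6.684 to 7.891), and the other complexes looked at spanned at most 2.548-fold, in the F1 part of ATP synthase. Respiratory complex III was not among them, and its genes ranged more widely, from 15.17 RPKM for CYT1 to 167.3 RPKM for QCR8. The 8 subunits of the cytosolic chaperonin CCT stayed within 1.923-fold, the 14 of the 20S proteasome core within 2.366-fold and the 19 of its regulatory particle within 1.988-fold. FAS1 and FAS2, the subunits of fatty acid synthase, differed by 1.158-fold. These complexes were chosen after values had been seen.

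Genes for other carbon sources, sporulation and flocculation were low. Gluconeogenesis and the glyoxylate cycle held 0.03441% of the pool, with FBP1, fructose-1,6-bisphosphatase, at 27 counts (0.776 RPKM), PCK1, phosphoenolpyruvate carboxykinase, at 111 counts (2.024 RPKM) and ICL1, isocitrate lyase, at 500 counts (8.988 RPKM). In that list MDH2, a cytosolic malate dehydrogenase, made up 60.66%. Peroxisomal fatty acid oxidation held 0.02579%, and its thiolase gene POT1 had 5 counts. Galactose genes held 0.006089%, of which GAL80, the repressor of the pathway, made up 75.41%, and the permease GAL2 had 30 counts. The maltose and sucrose genes held 0.008153% (0.0141% of reads), with SUC2, invertase, at 37.41 RPKM. Of 78 genes of meiosis and sporulation 76 were not above the median, with 38 counts for the master regulator IME1. The 5 flocculins held 0.001204% (0.004541% of reads), and FLO11, a surface adhesin, had 61 counts. In a bulk library, a transcript in few cells and a little of it in every cell cannot be told apart.

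Isozyme groups with a clear leader were common. In each of 107 groups of metabolic and other paralogs, members were ranked by counts per kb, and the highest was taken as dominant where it stood at least 2-fold above the second with the counting interval of the ratio above 1. By this rule 65 of 107 groups had a dominant member, in 27 it stood at least 10-fold above the second and in 10 at least 100-fold. In 10 groups a member shares more than 20% of its 100-base windows with another place in the genome, so that the split of reads is uncertain. Of the other 97 groups, 62 had a dominant member. The highest member was the same when reads were not divided by length in all 107 groups.

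**Figure D4:**
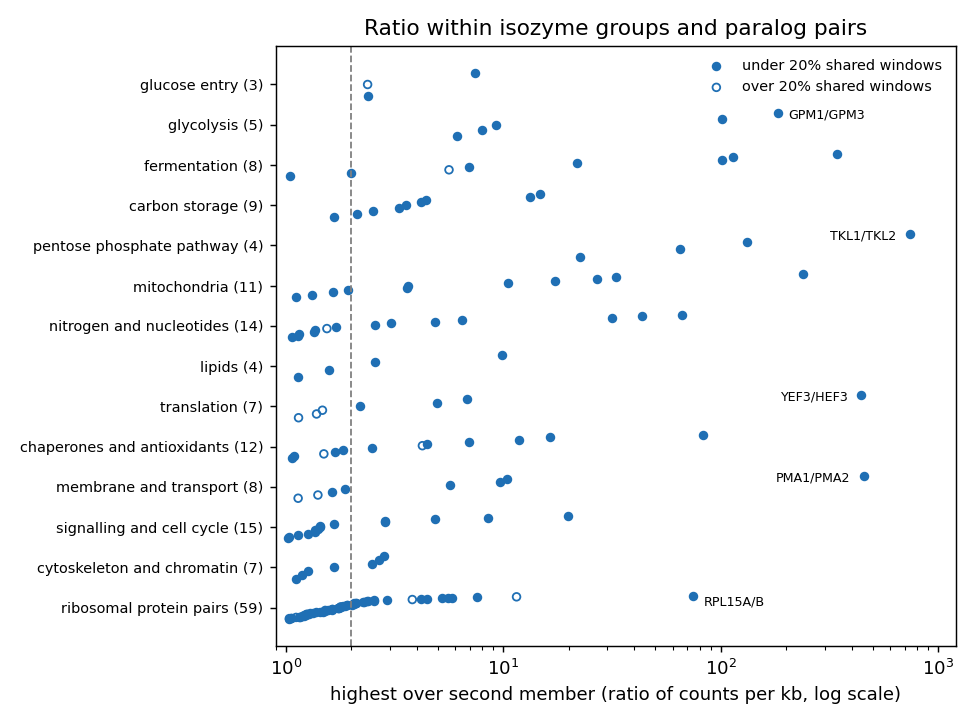
Each point is 1 isozyme group or ribosomal protein pair, placed by the ratio of its highest to its second member in counts per kb on a log scale, with the number of groups of each class in parentheses, and the dashed line stands at 2-fold. Points far to the right are TKL1 over TKL2 (737.4), PMA1 over PMA2 (454.8) and YEF3 over HEF3 (443.1), and most ribosomal protein pairs lie near or below 2-fold. Open points have members with over 20% shared windows, and the vertical offset within a class only separates points.

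All 5 groups of glycolysis and 6 of the 8 groups of fermentation had a dominant member. HXK2, the hexokinase used on high glucose, had 889.9 RPKM, against 120 RPKM for GLK1 and 15.87 RPKM for HXK1, and made up 84.38% of its group. TDH3 stood 6.091-fold above TDH2 (95% interval 6.044 to 6.139), with TDH1 at 257.7 RPKM. ENO2 stood 9.234-fold above ENO1 (9.139 to 9.329). CDC19, the pyruvate kinase of glycolysis, stood 101.5-fold above PYK2 (95.15 to 108.4), with 93372 and 931 counts. GPM1 exceeded GPM3 182.5-fold (172.4 to 193.4). PDC1 made up 99.04% of the pyruvate decarboxylases, 113.6-fold above PDC5 (105.4 to 122.5). ADH1 made up 94.56% of the alcohol dehydrogenases, and ADH2, which consumes ethanol, had 13.51 RPKM. On the acetate side, ACS2, the form used on glucose, exceeded ACS1 101.1-fold. DAK1 exceeded DAK2 342.3-fold, with 6427 and 19 counts. Among the sugar sensors RGT2, of low affinity, stood 2.372-fold above SNF3, of high affinity. PFK27 exceeded PFK26, the other 6-phosphofructo-2-kinase, 7.977-fold.

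The largest ratio of all 107 groups was that of transketolase, with 39762 counts for TKL1 and 54 for TKL2, a ratio of 737.4 (95% interval 565 to 981.8). The other pairs of the pentose phosphate pathway were split likewise. GND1 exceeded GND2 132.1-fold, TAL1 exceeded NQM1 65.17-fold and SOL3 exceeded SOL4 22.54-fold. Outside carbon metabolism, PMA1 exceeded PMA2 454.8-fold (427.6 to 484.1) and YEF3 exceeded HEF3 443.1-fold (411.3 to 478), although YEF3 and HEF3 agree in 74.71% of aligned coding bases and PMA1 and PMA2 in 79.46%. NDE1, the external NADH dehydrogenase, exceeded NDE2 239.1-fold. TSA1, the main cytosolic peroxiredoxin, exceeded TSA2 82.81-fold, and the ribonucleotide reductase gene RNR1 exceeded RNR3, known as inducible by DNA damage, 43.2-fold.

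Pairs that answer to oxygen, and some other pairs of carbon metabolism, had ratios between 1.108 and 17.19. CYC1, iso-1 cytochrome c, stood 17.19-fold above CYC7, while the oxygen-responsive pair COX5B and COX5A lay close together, at 92.98 and 83.89 RPKM (ratio 1.108, 95% interval 1.027 to 1.196). COX5B is known as the isoform of low oxygen. Another such pair, HYP2 and ANB1 (eIF5A), had 1147 and 231.5 RPKM, and the anaerobic carrier gene AAC3 had 36.73 RPKM beside 60.59 for PET9. PYC2 stood 3.65-fold above PYC1, and PGM1 4.396-fold above PGM2. The peroxisomal CIT2 stood 1.312-fold above the mitochondrial CIT1. DAL7 stood 10.47-fold above MLS1, its fellow malate synthase, at 14.39 and 1.373 RPKM. GPD1 and GPD2, the glycerol-3-phosphate dehydrogenases, had a ratio of 1.999, just under the limit, with an interval of 1.937 to 2.063.

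Groups of regulators were mostly even. In the class of signalling and cell cycle 5 of 15 groups had a dominant member, with a median ratio of 1.432. CLB2 and CLB1, B-type cyclins of mitosis, had 93.55 and 90.5 RPKM (ratio 1.034, 95% interval 0.9912 to 1.078), and ZDS2 and ZDS1, regulators of the Cdc55 form of the phosphatase, had 11.96 and 11.75 RPKM (ratio 1.018, 0.935 to 1.107), so the order within both pairs was not resolved at this depth. RTS1, the other regulatory B subunit of protein phosphatase 2A, had 71.53 RPKM, 1.438-fold above CDC55. The catalytic subunit genes PPH21 and PPH22 had a ratio of 1.268, and MSN4 and MSN2 of 1.361. The exceptions included BMH1, a 14-3-3 protein, which stood 8.499-fold above BMH2, and GSP1, the Ran GTPase, 19.74-fold above GSP2. TEF1 and TEF2 have 99.85% of coding bases in common, and their ratio of 1.142 is uncertain.

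Ribosomal protein paralogs were mostly balanced. Of 59 pairs, 22 had a dominant copy, with a median ratio of 1.76, and 7 pairs were uncertain through shared sequence. The A copy was the higher in 38 pairs and the B copy in 21, and among dominant copies 17 were A and 5 were B. RPL15A and RPL15B were the outliers, with 76740 and 1027 counts, a ratio of 74.72 (95% interval 70.26 to 79.54), although 93.17% of their coding bases agree. RPL7A stood 11.49-fold above RPL7B, RPS9B 7.578-fold above RPS9A, RPS7A 5.793-fold above RPS7B and RPS14A 5.236-fold above RPS14B. RPL7 is among the uncertain pairs. At the other end RPS23A and RPS23B had 30372 and 29362 counts, a ratio of 1.034 (1.018 to 1.051). With a limit of 1.5-fold in place of 2-fold, 38 pairs had a dominant copy, and with 4-fold 8 had one.

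The RPL41 pair shows how fine the line between copies can be. Both coding sequences are on chromosome IV, RPL41A at 130407 to 130484 and RPL41B at 221724 to 221801 of R64, both on the minus strand, and capitals mark the only base of 78 that differs.
RPL41A: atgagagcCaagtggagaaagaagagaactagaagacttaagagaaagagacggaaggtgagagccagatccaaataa
RPL41B: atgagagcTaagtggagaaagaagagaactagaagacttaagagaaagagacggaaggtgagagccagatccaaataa
RPL41A had 30306 and RPL41B 14773 counts, a ratio of 2.051 (95% interval 2.011 to 2.092). Both frames are shorter than the 100-base window used to measure shared sequence, so that the measure is missing for this pair and its split is uncertain too.

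Dominant copies mostly used more preferred codons than the second copy. In 56 of the 65 isozyme groups with a dominant member it had a higher share of preferred codons than the second member, with a median difference of 7.954 percentage points. Of the 42 groups without a dominant member this held in 24, with 2 ties and a median difference of 0.7911 percentage points. Of the 22 ribosomal protein pairs with a dominant copy 17 went this way, 4 went the other way and 1 was a tie. Of the 37 ribosomal protein pairs without one, 23 went this way, 11 the other way and 3 were ties. CDC19 had 95.49% preferred codons and PYK2 50.61%, YEF3 90.28% and HEF3 50.84%, PMA1 87.14% and PMA2 66.48%, and RPL15A 89.9% and RPL15B 76.26%. ENO2 and ENO1, by contrast, had 96.21% and 94.6%. Across 5786 genes with at least 10 counts, Spearman's rho between the share of preferred codons and the level was 0.4939, and 0.4568 without ribosomal protein genes, a description across genes that share the library and are not independent. With coding length rho was -0.1316, over 5792 genes, and with GC content 0.1518. In bins that also hold genes with under 10 counts, the median level climbed with the share of preferred codons. It was 27.03 RPKM for 3703 genes with 40 to 50% preferred codons and 2211 RPKM for 82 genes above 90%.

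Some genes with such codons had few or no counts. PAU1 and PAU14 (both 88.7%) had 0 counts, but all of their windows are shared with other places. LEU2 (73.09%), absent from the strain, had 0. THI5 (81.04%), of thiamine precursor synthesis, had 4, but 59.52% of its windows are shared, so its count is uncertain too. FLO11 (70.53%) had 61 counts and THI4 (73.08%), also of thiamine synthesis, 87.

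Short motifs were counted in the upstream sequence of each gene. A TATA box, searched as TATAAA on both strands within 250 bases before the start codon, was found for 43.45% of 5979 genes, for 21 of 25 genes of glycolysis and ethanol formation and for 32 of 137 ribosomal protein genes. CTTCC, the core letters bound by the glycolytic activator Gcr1, was found in 39.34% of all, in 12 of the 25 and in 68 of the 137. AGGGG, the core of the stress response element of Msn2 and Msn4, was found in 18.75% of all, in 6 of the 25 and in 19 of the 137. The upstream bases of the enolase pair are printed without the last 100 before the start codon, with both motifs in capitals on either strand (CTTCC or its complement, TATAAA or TTTATA).
ENO2: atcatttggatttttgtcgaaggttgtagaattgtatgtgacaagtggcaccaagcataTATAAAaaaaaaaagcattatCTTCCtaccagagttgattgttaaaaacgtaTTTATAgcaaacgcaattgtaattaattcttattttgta
ENO1: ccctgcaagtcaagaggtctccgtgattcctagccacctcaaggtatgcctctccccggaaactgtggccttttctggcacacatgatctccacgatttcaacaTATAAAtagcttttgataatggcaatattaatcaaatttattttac
They come from chromosome VIII (451077 to 451226, plus strand) for ENO2 and chromosome VII (1000677 to 1000826, plus strand) for ENO1. Within 250 bases ENO2 held TATAAA 191 bases before its start codon and, on the other strand, at 139 bases, with CTTCC at 170 and 94 bases. ENO1 held TATAAA at 146 bases and no CTTCC. The motifs do not overlap each other there. Such matches are a description of the letters, and the coding sequences of both genes agree in 94.82% of bases.

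At the lower end 116 features had 0 to 3 counts, 47 of them with 0, 30 with 1, 23 with 2 and 16 with 3, and another 23 features lay just outside with 4 counts. They were chosen by their counts, so what they share is a description. Of the 108 that could be placed, 50 (46.3%) lay within 30 kb of a chromosome end, against 6.488% of all mRNA features. More than 50% of the 100-base windows occur elsewhere in the genome for 41 of 106 (38.68%), against 3.86% of all. How reads with several matching places were treated was not stated, and its part in these counts was not tested. Their median coding length was 360 bases, against 1197, and 77 of 116 had a hypothetical or unnamed product. The counts that chose them are not divided by length, so short features fall under the limit more easily. Away from the ends and with no shared window stood 47.

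**Figure D5:**
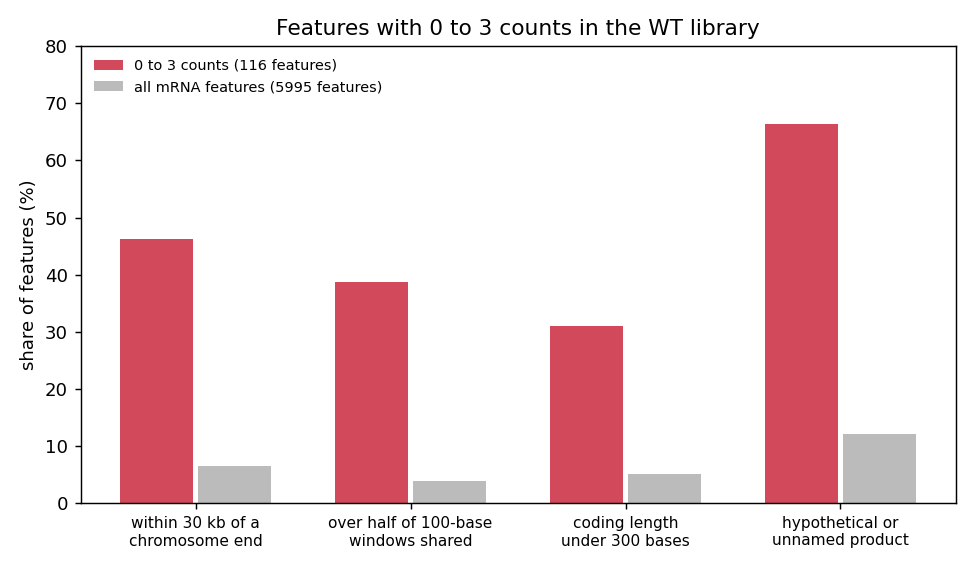
Bars give the share of features in percent from 0 for the 116 features with 0 to 3 counts (red, left) and for all 5995 mRNA features (grey, right), counted where needed among features with a position or a window measure. The features near zero are more often close to a chromosome end (46.3%, against 6.488%), shared (38.68%, against 3.86%), short (31.03%, against 5.171%) and without a known product (66.38%, against 12.19%). The limit is in counts, not per kb, so short features fall under it more easily.

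Among the named genes near zero, families of chromosome ends were prominent. Of 30 seripauperin and related anaerobic mannoprotein genes none lay above the median and 12 had 0 to 3 counts, and PAU7 made up 22.47% of the little the list held (0.008682% of the pool and 0.004515% of reads). PAU1, PAU14, PAU16, PAU19, PAU21 and PAU22 had 0 counts, and of these PAU1, PAU14, PAU21 and PAU22 consist of shared windows only. The hexose transporter genes HXT15 and HXT16 had 0 counts, with 87.54% of windows shared, and so did the isomaltase gene IMA3, a full copy of its relatives, while IMA4 had 3. ERR2 and ERR1, enolase-related genes near chromosome ends, had 0 and 2 counts, with 100% of windows shared. SOR1 and SOR2, sorbitol dehydrogenases, had 2 and 1 counts, with 89.74% shared. The silent mating cassette gene HMLALPHA2 had 0 counts and HMLALPHA1 had 1. MATALPHA1, which the MATa strain lacks, had 0, and MATALPHA2 had 5. All windows of HMLALPHA2, HMLALPHA1 and MATALPHA1 are shared, so the split of reads among such copies is uncertain. Unique in sequence were the sporulation genes SPS2, CDA2, OSW1 and CSM4, with 2 counts each, and LEE1, with 0. The 89 features of transposons held 429383 counts, and none of them fell to 3 counts or fewer, the lowest having 7.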

How the data were processed

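A single RNA-seq library of BY4741 WT cells after 6 h in YPD20 was used, from a table of the series with 1 library per strain. Total RNA was depleted of rRNA with riboPOOL, and a directional library was sequenced as paired ends. For mapping, the authors used hisat2 and the genome of S288C, and the submitters' processing notes name Cutadapt and featureCounts. Strand and multiple-mapping settings are not given in the sources used here. The authors deposited whole-number counts per transcript without normalization. The deposited RPKM values equalled the count divided by the listed length and the sum of all counts, to a relative deviation of at most 2.126e-08. The deposited TPM values were made from the same counts and lengths and were only checked. The 3 value columns of the other strain were not used, and no comparison between strains was made.

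Accessions placed the features on R64 (5980 of 5995 mRNA features, 5975 with the R64 length), and positions and sequences are RefSeq's for R64. Pool shares, ratios and motif counts came from SciPy 1.17.1 and pandas 2.3.3 under Python 3.11.15. Intervals are 95% Clopper-Pearson intervals and cover counting error only, since PCR copies are not independent molecules. Preferred codons were a list of 23 from textbook yeast codon preference, leaving out methionine and tryptophan. Of the names on the gene lists, MEL1 and FLO8 were not found.

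Members and lists were chosen with earlier results of these data known. Genes named are the 20 highest features, the highest and lowest of each list, members of isozyme groups, features near zero on a list or with 0 counts, and genes of the study. Any further gene was picked with its value in view. Alternatives tried were reads in place of counts per kb, another denominator, shorter lengths, other limits and features with shared sequence left out. Leaving out features that overlap a non-coding RNA was chosen after seeing the data.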

Additional observations from a re-analysis of the deposited data

How the results depend on the processing

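The share of ribosomal proteins in the pool, 38.59%, was 17.95% of reads not divided by length, 26.2% with all features in the denominator, 38.1% without features over 20% shared, 41.39% with lengths less 100 bases and 39.85% without features overlapping a non-coding RNA on the same strand. That of glycolysis, 6.658%, was 7.944%, 4.521%, 6.98%, 5.977% and 6.877% under the same settings. Where 100 bases were subtracted, no length was set below 100 bases, and this setting mostly raises the weight of short genes. Features holding 50% of the pool numbered 129, and 272 held 50% of the reads. Of ribosomal protein pairs 22 had a dominant copy, 38 with a 1.5-fold and 8 with a 4-fold limit. With pairs over the limit of shared sequence left out, 20 had one. These include RPL41, for which the measure is missing. Features near zero numbered 116, but 47 at 0 counts, 77 at 0 to 1, 215 at 0 to 10, 74 under 0.1 RPKM and 75 without features over 50% shared. The number of isozyme groups with a dominant member was 65, and 78 with a 1.5-fold and 47 with a 4-fold limit. With lengths less 100 bases the highest member was the same in 105 of 107 groups, and HSP26 and GRX1 took the place of HSP42 and GRX2. Leaving out the mitochondrial genome was not run, since no mRNA feature was placed on it. No paired analysis was possible because only 1 library was used, and for the same reason no replicate could be left out.

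Short genes, whose coding length omits the untranslated regions, weigh most in shares per kb. The 282 features with over 20% shared windows have uncertain counts, and a count of 0 sets only a limit of 3 counts.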

Other observations

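Some single genes stood apart from the rest of their list. MRPL4, a protein of the large mitochondrial ribosomal subunit, had 52 counts and 1.63 RPKM, whereas the 75 genes of its list had a median of 41.14 RPKM. It has no shared window and overlaps no annotated gene, and its neighbours on chromosome XII, LSM3 and SEC39, had 86.04 and 40.47 RPKM. SPO24, a short gene on the list of meiosis and sporulation, had 112.8 RPKM, where the 78 genes had a median of 1.506 RPKM, and alone made up 27.36% of that list. PHO3, a thiamine-repressible acid phosphatase, made up 58.77% of the thiamine list, of which 18 of 22 genes were not above the median of the mRNA features.

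Iron and phosphate lists were mixed. Of 24 iron uptake genes 13 lay above the median of the mRNA features, and the list held 0.1523% of the pool, led by FET3, the multicopper oxidase of reductive uptake, at 181.4 RPKM. PHO84, the high-affinity phosphate transporter, had 447.7 RPKM and made up 20.79% of the phosphate starvation genes, which held 0.2522% (0.4347% of reads) with 12 of 19 above the median. All of PHO84 is overlapped by an annotated non-coding RNA on the opposite strand, and without the strand setting of the counts sense and antisense reads cannot be told apart.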
